A study of Mus musculus with 12 samples.

Results

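The genes that write, maintain and oxidise DNA methylation were followed in mouse gonadal somatic cells with and without Jmjd1a, a demethylase of histone H3 lysine 9 whose current symbol is Kdm3a. The 8 genes were Dnmt1, Uhrf1, Dnmt3a, Dnmt3b, Dnmt3l, Tet1, Tet2 and Tet3, and their probes were found through the transcript accessions printed on the array. All 8 were found, with 14 probes, out of 18749 named genes and 41174 probes on the array. All 14 probes passed the filter on dim probes, which kept a probe if the scanner software marked it well above background on each of the 3 arrays in some group, and 19180 features (13266 of them named genes) passed it in all. Where a gene had several probes, the one with the highest mean signal, called its test probe here, stood for it.

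The 4 groups, of 3 embryos each, were collected at embryonic day 11.5: males homozygous for the Jmjd1a mutant allele, males heterozygous for it, females homozygous for it, and females heterozygous for it. The heterozygous embryos served as controls, so every embryo carried at least 1 copy of the mutant allele, and no wild-type embryo was compared. All embryos also carried an Nr5a1/CD271 transgene, which puts the surface protein CD271 on cells that use Nr5a1 regulatory sequence, and CD271-positive cells were pulled from dissociated gonads and mesonephroi with magnetic beads. Each array held amplified, Cy3-labelled RNA from the cells of 1 embryo. At this stage the gonad has not yet committed to testis or ovary, and the study asked how the demethylase acts on sex determination.

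Dnmt1 copies methylation onto newly made DNA, and Uhrf1 brings it to hemimethylated sites. Dnmt3a and Dnmt3b place methyl groups on unmethylated DNA, and Dnmt3l is their partner without catalytic activity, best known from germ cells. Tet1, Tet2 and Tet3 oxidise 5-methylcytosine, the first step of active demethylation. Methylation of histone H3 lysine 9 and of DNA are linked in mammalian cells, since Uhrf1 binds methylated H3 lysine 9 as well as hemimethylated DNA.

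Promoter sequences from RefSeq (assembly GRCm38.p6) were matched for all 8 genes, in 15 windows that each ran from 250 bases before to 50 bases after an annotated start. The windows of Dnmt1, Uhrf1 and Tet3 are shown because these genes had the 3 smallest p-values for the mutant effect over both sexes, and that of Dnmt3l because it held few CpGs. Where a gene had several windows, the one with the most CpGs is shown, chosen for that count. Capitals mark each CpG, the dinucleotide that the Dnmt enzymes methylate. The Dnmt1 window, with 33 CpGs where the other 2 held 12 and 2, is chr9:20952574-20952873 on the minus strand. The Uhrf1 window, with 33 CpGs where the other held 12, is chr17:56304063-56304362 on the plus strand. The Tet3 window, with 22 CpGs, is chr6:83441629-83441928 on the minus strand. The Dnmt3l window, with 6 CpGs where the other 2 held 4 and 3, is chr10:78042037-78042336 on the plus strand.
Dnmt1: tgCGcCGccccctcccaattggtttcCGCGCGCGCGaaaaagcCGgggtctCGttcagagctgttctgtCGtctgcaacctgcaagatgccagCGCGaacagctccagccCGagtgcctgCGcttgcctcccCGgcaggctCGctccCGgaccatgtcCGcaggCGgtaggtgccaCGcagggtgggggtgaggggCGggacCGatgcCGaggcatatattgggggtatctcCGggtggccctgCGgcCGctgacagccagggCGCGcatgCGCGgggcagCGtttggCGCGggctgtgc
Uhrf1: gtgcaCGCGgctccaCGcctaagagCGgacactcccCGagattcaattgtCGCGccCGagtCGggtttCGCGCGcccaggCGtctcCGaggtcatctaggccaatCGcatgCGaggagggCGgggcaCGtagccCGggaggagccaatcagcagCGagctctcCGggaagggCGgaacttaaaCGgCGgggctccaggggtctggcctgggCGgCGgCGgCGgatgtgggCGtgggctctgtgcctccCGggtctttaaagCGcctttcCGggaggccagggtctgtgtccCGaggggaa
Tet3: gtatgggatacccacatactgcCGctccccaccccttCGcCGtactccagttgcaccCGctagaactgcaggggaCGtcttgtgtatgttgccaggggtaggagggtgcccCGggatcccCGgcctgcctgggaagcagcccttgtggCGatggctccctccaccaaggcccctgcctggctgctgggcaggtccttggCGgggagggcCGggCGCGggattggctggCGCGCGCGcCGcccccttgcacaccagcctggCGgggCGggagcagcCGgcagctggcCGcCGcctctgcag
Dnmt3l: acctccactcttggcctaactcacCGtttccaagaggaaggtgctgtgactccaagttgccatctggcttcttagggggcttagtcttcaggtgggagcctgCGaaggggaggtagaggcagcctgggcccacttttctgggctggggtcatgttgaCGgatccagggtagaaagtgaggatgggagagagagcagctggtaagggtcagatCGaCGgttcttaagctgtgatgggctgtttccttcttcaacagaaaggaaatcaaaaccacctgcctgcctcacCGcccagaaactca

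A median window among all 32851 in the table held 7 CpGs, and 26.5% of windows held at least 20. Each of the 8 genes apart from Dnmt3l and Tet1 had at least 1 window with 20 CpGs or more. The Tet2 window held 57 CpGs, a number that 0.152% of all windows reached. Tet1 had 17 in its window. The E2F words TTTCCCGC and TTTGGCGC, which do not overlap each other and were searched on both strands, are sites of the factors that drive S phase genes. A word was found once in the 15 windows, in the Dnmt1 window printed above, starting at base 34 after the annotated start. Such a word lay in 1.56% of all windows and in 3.74% of windows with at least 20 CpGs. The match is a description of letters, and the arrays say nothing of methylation or of binding at these windows.

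The arrays were checked before the genes were compared. On the 12 arrays 58.0% to 65.2% of spots gave a signal well above background, and the signal at the 75th percentile of an array was between 142.9 and 299.5, a 2.10-fold range. This percentile, called the brightness of an array below, was 175.3 to 220.8 in mutant males, 142.9 to 220.7 in control males, 268.3 to 299.5 in mutant females and 188.7 to 280.0 in control females. The arrays lay on 3 slides of 4: mutant male 1 shared slide 1 with the 3 control males, mutant males 2 and 3 shared slide 2 with the first and second control females, and the 3 mutant females shared slide 3 with control female 3. Control female 3 stood apart from its group, with a median absolute distance of 0.381 log2 units from the other control females, against 0.130 to 0.279 for the other 11 arrays, and its effect on the mutant changes and sex differences is given below. The Kdm3a test probe stood at 0.91 ± 0.183 in mutant males, against 2.86 ± 0.165 in control males, and at 0.62 ± 0.165 in mutant females, against 2.89 ± 0.0735 in control females (log2 relative to brightness, SD, n = 3 each). Of 9 gonadal somatic markers, 7 were well above background on all 12 arrays, Nr5a1, Wt1 and Gata4 among them. Of 11 germ cell markers 7 were tested: Dppa5a, Ddx4 and Dnd1 were well above background on all 12 arrays, Dppa3 on 11, and Pou5f1, Tfap2c and Nanos3 on 8, while Dazl and Prdm1 were so on no array.

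Levels below are log2 values relative to the brightness of the array they came from. A change is the mutant minus the control mean of these values, with the standard error (SE) of a limma fit over all 12 arrays. It was called where its Benjamini-Hochberg adjusted p over all 19180 features was under 0.05. Probes other than test probes were fitted apart, among all 25816 probes that passed the filter. Their p-values were adjusted over those probes. Precision is limited by the number of arrays, 3 embryos a group, and the p-values measure the spread between single embryos. Levels of different genes come from different probes and were not set against each other.

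Dnmt1 signal was higher in the mutant than in the control groups of both sexes, by an amount that did not pass the test. Its levels were 1.44, 1.06 and 1.76 in mutant males, against 0.62, 0.84 and 0.98 in control males. They were 1.59, 1.89 and 1.36 in mutant females, against 0.85, 0.94 and 1.63 in control females. The male groups did not overlap, while in females control female 3 lay among the mutants and the other 2 controls lay below all of them. The change was 0.60 ± 0.240 (SE) in males, or 1.52-fold, with a 95% interval of 0.08 to 1.13 (limma adjusted p = 0.381). In females it was 0.47 ± 0.240, with an interval of -0.05 to 1.00 (limma adjusted p = 0.486). Over both sexes it was 0.54 ± 0.169, or 1.45-fold, with an interval of 0.17 to 0.91 (limma adjusted p = 0.155). Ordered by mean, the groups ran mutant females 1.61, mutant males 1.42, control females 1.14 and control males 0.81, and each group overlapped its neighbour in that order.

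Uhrf1, which targets Dnmt1, gave a similar pattern. Its levels were 3.63, 3.62 and 3.85 in mutant males, against 3.29, 3.36 and 3.40 in control males. They were 3.81, 4.00 and 3.56 in mutant females, against 3.18, 3.19 and 3.85 in control females. As for Dnmt1, the male groups did not overlap, and control female 3 alone among the controls lay within the range of the mutant females. The change was 0.36 ± 0.185 in males (limma adjusted p = 0.429) and 0.38 ± 0.185 in females (limma adjusted p = 0.482). Over both sexes it was 0.37 ± 0.131, or 1.29-fold, with an interval of 0.08 to 0.66 (limma adjusted p = 0.17). The other Uhrf1 probe followed the test probe across the 12 arrays (Pearson r = 0.989) and gave 0.34 over both sexes (limma adjusted p = 0.184). Both Uhrf1 probes gave the same direction and nearly the same size.

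**Figure D1:**
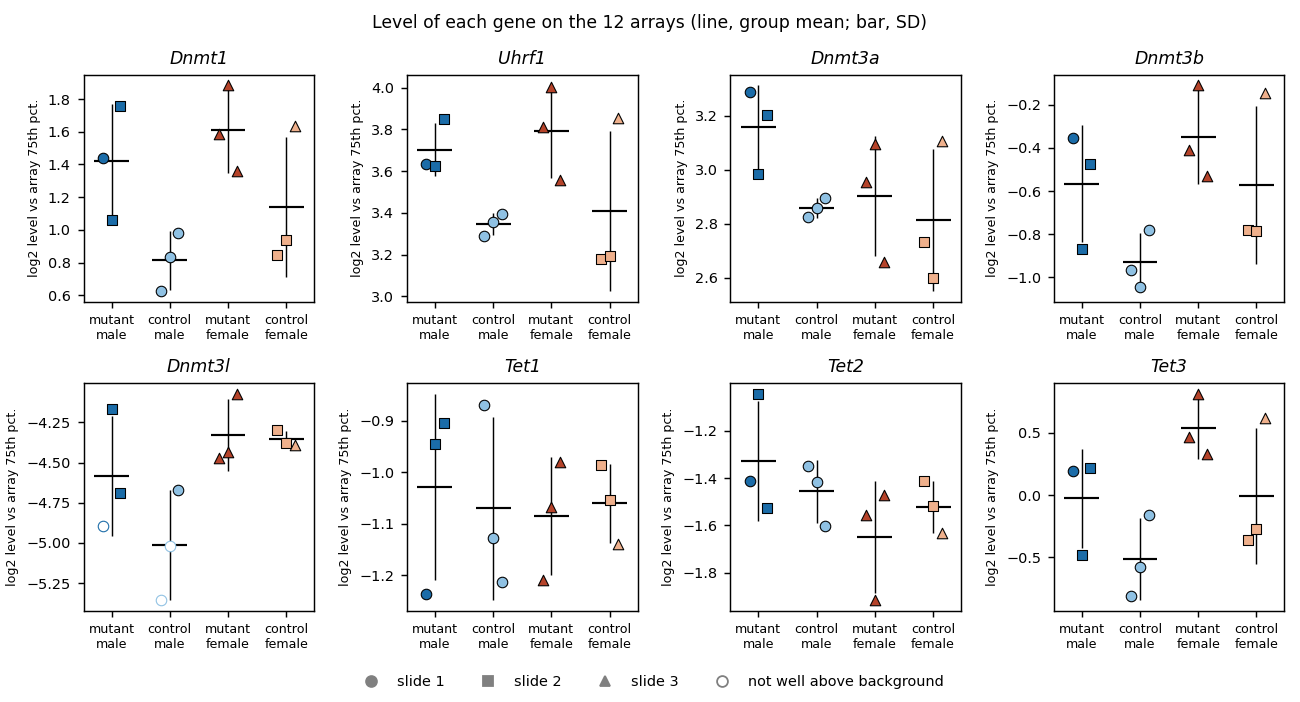
Log2 level of each gene's test probe relative to the 75th percentile of the array, for mutant males, control males, mutant females and control females (left to right in each panel). Points are single embryos with the marker giving the slide, open points were not well above background, the line is the group mean and the bar the SD of 3 embryos. Dnmt1, Uhrf1 and Dnmt3a do not overlap between mutant and control males, while in females control female 3 (slide 3) lies among the mutants for Dnmt1, Uhrf1 and Tet3.

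Among the de novo enzymes, Dnmt3a and Dnmt3b lay higher in mutants on average, and neither change passed the test. Dnmt3a stood at 3.29, 2.98 and 3.20 in mutant males, against 2.82, 2.86 and 2.90 in control males, and these groups did not overlap. In females it stood at 2.95, 3.09 and 2.66 in mutants, against 2.73, 2.60 and 3.11 in controls, and these groups overlapped. The change of Dnmt3a was 0.30 ± 0.159 in males (limma adjusted p = 0.435), 0.09 ± 0.159 in females (limma adjusted p = 0.773) and 0.19 ± 0.112 over both sexes (limma adjusted p = 0.275). The 2 other Dnmt3a probes gave 0.25 (limma adjusted p = 0.174) and 0.27 (limma adjusted p = 0.283) over both sexes. They followed the test probe less closely than the Uhrf1 probes followed each other, with Pearson r of 0.469 and 0.612 across the 12 arrays. The first of them also separated mutant females from control females, by 0.30 (limma adjusted p = 0.464), which the test probe did not. Female groups did not overlap for 12.7% of all features. In males both other probes were higher in mutants, by 0.20 and 0.32, but with overlap, so only the test probe separated the male groups. The transcripts of Dnmt3a that each probe reads were not analysed here.

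Dnmt3b stood at -0.35, -0.87 and -0.47 in mutant males, against -0.96, -1.05 and -0.78 in control males. It stood at -0.41, -0.11 and -0.53 in mutant females, against -0.78, -0.78 and -0.15 in control females. Both pairs of groups overlapped, in males through mutant male 2 and in females through control female 3. The change was 0.36 ± 0.202 in males (limma adjusted p = 0.442), 0.22 ± 0.202 in females (limma adjusted p = 0.592) and 0.29 ± 0.143 over both sexes (limma adjusted p = 0.229).

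Dnmt3l, the partner without catalytic activity, was near the limit of detection. It was well above background on 2 of 3 mutant male arrays, 1 of 3 control male arrays and all 6 female arrays, and so passed the filter on dim probes only through the female groups. Its levels were -4.90, -4.17 and -4.69 in mutant males, against -5.35, -5.02 and -4.67 in control males. They were -4.47, -4.44 and -4.07 in mutant females, against -4.30, -4.38 and -4.39 in control females. The mutant change was 0.43 ± 0.213 in males (limma adjusted p = 0.428), where 3 of the 6 values were not well above background, and 0.03 ± 0.213 in females (limma adjusted p = 0.949). With normexp background correction, a different way of removing local background, the change over both sexes turned to -0.18, against 0.23 as processed here. Since Dnmt3l is best known from germ cells, the summed signal of the 7 tested germ cell markers, as a multiple of brightness, is given beside it: 5.12 to 9.05 in mutant males, 5.4 to 6.56 in control males, 1.99 to 6.59 in mutant females and 1.74 to 9.0 in control females. The part of germ cells in the Dnmt3l values was not tested.

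Tet3 lay higher in mutants by its test probe, with the widest spread of the 8 genes. Its levels were 0.19, -0.48 and 0.22 in mutant males, against -0.81, -0.58 and -0.16 in control males. They were 0.47, 0.82 and 0.33 in mutant females, against -0.36, -0.28 and 0.62 in control females. Mutant male 2 lay among the control males, and control female 3 lay among the mutant females. The change was 0.49 ± 0.290 in males (limma adjusted p = 0.453) and 0.54 ± 0.290 in females (limma adjusted p = 0.489). Over both sexes it was 0.52 ± 0.205, or 1.43-fold, with an interval of 0.06 to 0.97 (limma adjusted p = 0.187). The 2 other Tet3 probes did not follow the test probe, with Pearson r of 0.143 and 0.364 across the 12 arrays, and gave 0.05 and 0.10 over both sexes (limma adjusted p = 0.789 and 0.601). Both were positive in males, at 0.21 and 0.28. The second showed no overlap between mutant and control males, beside 20.3% of all features (8.39% higher in mutants). Its lowest mutant male lay at -3.52 and its highest control male at -3.56, and control male 1 was not well above background. In females the 2 other probes were negative, at -0.12 and -0.07. The 3 Tet3 probes are therefore uncertain as readings of 1 transcript, most of all in females.

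For Tet1 and Tet2 no mutant change larger than the spread between arrays was detected. Tet1 stood at -1.24, -0.95 and -0.90 in mutant males, against -0.87, -1.13 and -1.21 in control males, and at -1.21, -1.07 and -0.98 in mutant females, against -0.99, -1.05 and -1.14 in control females. Tet2 stood at -1.41, -1.04 and -1.53 in mutant males, against -1.35, -1.42 and -1.60 in control males, and at -1.56, -1.92 and -1.47 in mutant females, against -1.41, -1.52 and -1.63 in control females. All these pairs of groups overlapped. Over both sexes Tet1 differed by 0.01 ± 0.0940 (limma adjusted p = 0.957), and the 95% interval allowed a fold between 0.871 and 1.16. Tet2 differed by 0.00 ± 0.113 (limma adjusted p = 0.999), and the interval allowed a fold between 0.841 and 1.19. The other Tet2 probe followed the test probe (Pearson r = 0.805) and gave -0.14 over both sexes.

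**Figure D2:**
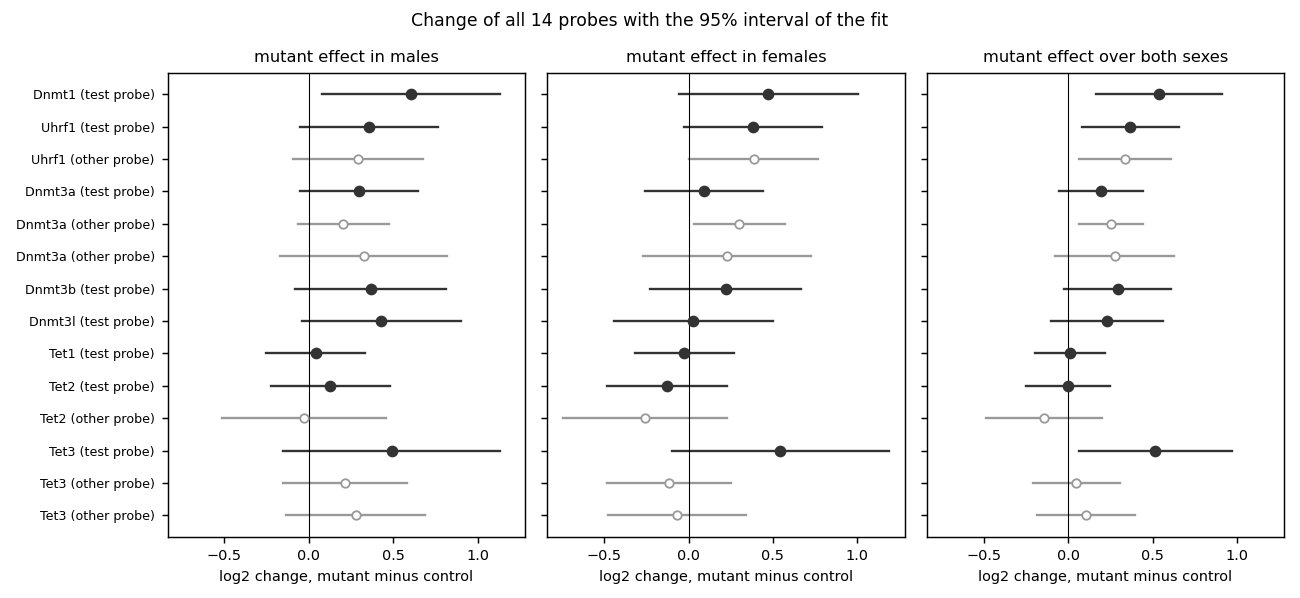
Log2 change, mutant minus control, of all 14 probes in males, females and over both sexes, with the 95% interval of the limma fit. Filled points are test probes and open points other probes. The Dnmt1, Uhrf1 and Tet3 test probes and 1 other probe each of Uhrf1 and Dnmt3a have intervals above 0 over both sexes, before adjustment for the number of features or probes tested.

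Of the 8 genes, none passed the limma test after adjustment in males, where 0.469% of all features did, in females, where 0.355% did, or over both sexes, where 1.12% did. At an unadjusted p under 0.05 there was 1 of 8 in males (Dnmt1) beside 11.9% of all features, 0 of 8 in females beside 10.4%, and 3 of 8 over both sexes (Dnmt1, Uhrf1 and Tet3) beside 23.6%. The mutant and control groups did not overlap for 3 of 8 genes in males, all higher in mutants, beside 20.3% of all features (8.39% higher), and for 0 of 8 in females, beside 12.7%. The sign of the change was positive for 8 of 8 genes in males, 6 of 8 in females and 8 of 8 over both sexes, beside 44.6%, 43.3% and 43.4% of all features. Over both sexes Tet1 (0.01 ± 0.0940) and Tet2 (0.00 ± 0.113) lay so near 0 that their sign carries little meaning. It held under 12 of 21 alternative settings for Tet1 and 13 of 21 for Tet2. Among these settings, separate tests of each probe took Tet2 from its other probe, which had the smaller p. The other Tet2 probe was negative over both sexes (-0.14) and in males (-0.03). The median change of the 8 was 0.36 in males, 0.16 in females and 0.26 over both sexes, beside -0.05 for all features in each of the 3 comparisons. Under normexp background correction, Dnmt3l (-0.18), Tet1 (-0.01) and Tet2 (-0.05) were negative over both sexes, while under quantile normalization all 8 stayed positive. Because the RNA came from bulk cells, more cells that express a gene and more RNA per cell cannot be told apart in any of these values.

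No difference between the mutant effects of the 2 sexes was detectable for any of the 8 genes. The difference, male effect minus female effect, lay between -0.05 for Tet3 and 0.40 for Dnmt3l, and none of the 8 passed the limma test, as for all features (0%). At an unadjusted p under 0.05 there was also none of the 8, beside 3.65% of all features. For Dnmt1 the 2 effects differed by 0.13, and for Uhrf1 by -0.03. Without control female 3 these differences were -0.11 for Dnmt1, -0.25 for Uhrf1 and -0.37 for Tet3. With slide as a block they were 0.65 for Dnmt1, 0.78 for Dnmt3b, 0.63 for Dnmt3a and 0.79 for Tet3, with limma adjusted p of at least 0.431 for each of the 8. Without control female 3 the sign thus turned for Dnmt1 and for Dnmt3b (-0.07, against 0.14). With slide as a block it turned for Tet3, for Uhrf1 (0.35) and for Tet1 (-0.22, against 0.07). The size and, for these genes, the sign of the difference depended on that array and on slide. Within slides, control female 3 was the only control set against the mutant females.

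Between the sexes, none of the 8 genes passed the limma test in mutants, where 0.13% of all features did, or in controls, where 0.177% did. No slide held both sexes of 1 genotype, so both sex differences lay wholly between slides. Among controls, Dnmt3l was lower in males than in females by 0.66 ± 0.213, with no overlap. Dnmt3l passed the filter on dim probes only through the female groups, where it was higher, so its adjusted p is not used here. The 2 counts that follow hold Dnmt3l alone and carry the same limit. At an unadjusted p under 0.05 there was 1 of 8, beside 10.8% of all features. The groups did not overlap for 1 of 8, beside 15.9% of all features (5.9% lower in males). The male values include 2 that were not well above background, and with normexp background correction the difference turned to 0.23. With slide as a block it was -0.21, and without control female 3 it was -0.68. Leaving out that array also moved the control difference of Dnmt1 to -0.08, against -0.33 with it, and that of Tet3 to -0.20, against -0.51. Among mutants, Tet3 was lower in males by 0.56 ± 0.290, with no overlap (limma adjusted p = 0.463), which held for 1 of 8 genes beside 22.8% of all features (8.66% lower in males). With slide as a block this Tet3 difference turned to 0.27, and the 2 other Tet3 probes gave 0.26 and -0.01. The same block gave 0.61 for Uhrf1, against -0.09 without it, and 0.53 for Dnmt1, against -0.19. Tet2 was higher in mutant males than in mutant females by 0.32 (limma adjusted p = 0.459), with overlap, and no gene of the 8 had an unadjusted p under 0.05 there, beside 11.5% of all features.

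Control female 3 changed the call over both sexes. Without it, the changes over both sexes were 0.66 for Dnmt1 (limma adjusted p = 0.0265), 0.48 for Uhrf1 (limma adjusted p = 0.0225), 0.40 for Dnmt3b (limma adjusted p = 0.041) and 0.67 for Tet3 (limma adjusted p = 0.0304). That makes 4 of 8 genes called, but 4787 of 19327 features, or 24.8%, were called in the same fit. Tet3 was called on its test probe, which its other probes did not follow. With all arrays those probes gave 0.05 and 0.10 over both sexes. In females alone the change without it was 0.72 for Dnmt1 (limma adjusted p = 0.0811), 0.61 for Uhrf1 (limma adjusted p = 0.073) and 0.86 for Tet3 (limma adjusted p = 0.0808). Weighting each array by its estimated quality, which gave control female 3 the lowest weight of the 12 (0.205), called 5 of 8 genes over both sexes, among 52.2% of all features.

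Slide was partly confounded with genotype as well as with sex, and the mutant changes within slides were as follows. On slide 1, which held mutant male 1 and the 3 control males, Dnmt1 differed by 0.63, Uhrf1 by 0.29, Dnmt3b by 0.58 and Tet3 by 0.71. On slide 3, which held the 3 mutant females and control female 3, Dnmt1 differed by -0.02, Uhrf1 by -0.06, Dnmt3b by -0.20 and Tet3 by -0.08. The differences of these 4 genes were positive on slide 1 and negative on slide 3. On slides 1 and 3 in turn, Dnmt3a differed by 0.43 and -0.20 and Dnmt3l by 0.12 and 0.07. Tet1 differed by -0.17 and 0.05, and Tet2 by 0.04 and -0.02. Each of these differences has a single array on 1 side and no test. With slide as a block in the fit, the change over both sexes was 0.30 for Dnmt1, 0.11 for Uhrf1, 0.19 for Dnmt3b and 0.31 for Tet3, with limma adjusted p between 0.848 and 0.985 over the 8 genes. In each sex this fit gave the same changes as the slides above, for Dnmt1 0.63 in males and -0.02 in females. It therefore rests on mutant male 1 and on control female 3, each alone on its side, and is no separate check of that control.

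**Figure D3:**
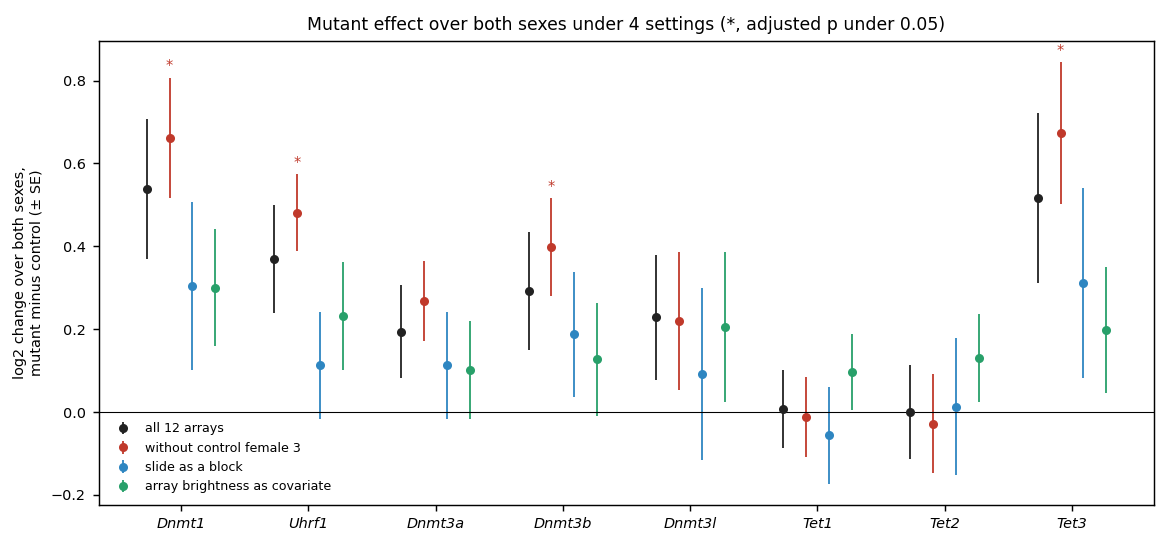
Log2 change over both sexes, mutant minus control, of the 8 test probes with its SE, for all 12 arrays, without control female 3, with slide as a block and with array brightness as a covariate; asterisks mark adjusted p under 0.05. Leaving out control female 3 raises Dnmt1 to 0.66 and Tet3 to 0.67, and the slide block gives 0.30 and 0.31.

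The levels of several of the genes followed the brightness of the array. Over the 12 arrays, level against log2 brightness gave a Pearson r of 0.895 for Tet3 (Spearman rho 0.930), 0.786 for Dnmt3b (rho 0.776), 0.761 for Dnmt1 (rho 0.769) and 0.594 for Uhrf1 (rho 0.622). Tet2 ran the other way, with an r of -0.700 (rho -0.811), and Tet1 (-0.425), Dnmt3a (0.104) and Dnmt3l (0.593) made up the 8 relations computed. Without the 2 arrays of most extreme brightness, r was 0.852 for Tet3, 0.767 for Dnmt3b, 0.656 for Dnmt1, 0.483 for Uhrf1 and -0.759 for Tet2. These are descriptions, because brightness is also the value each level was divided by, and 38.3% of all features had an r beyond 0.7 in either direction. An r as high as that of Tet3 was reached by 1.42% of all features, and one as high as that of Dnmt1 by 11.4%. After centring on the 3 slides, r over the 12 arrays was 0.711 for Tet3, 0.50 for Dnmt3b, 0.477 for Dnmt1, 0.157 for Uhrf1 and -0.625 for Tet2. With log2 brightness as a covariate, the change over both sexes was 0.30 for Dnmt1, 0.23 for Uhrf1, 0.13 for Dnmt3b and 0.20 for Tet3.

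**Figure D4:**
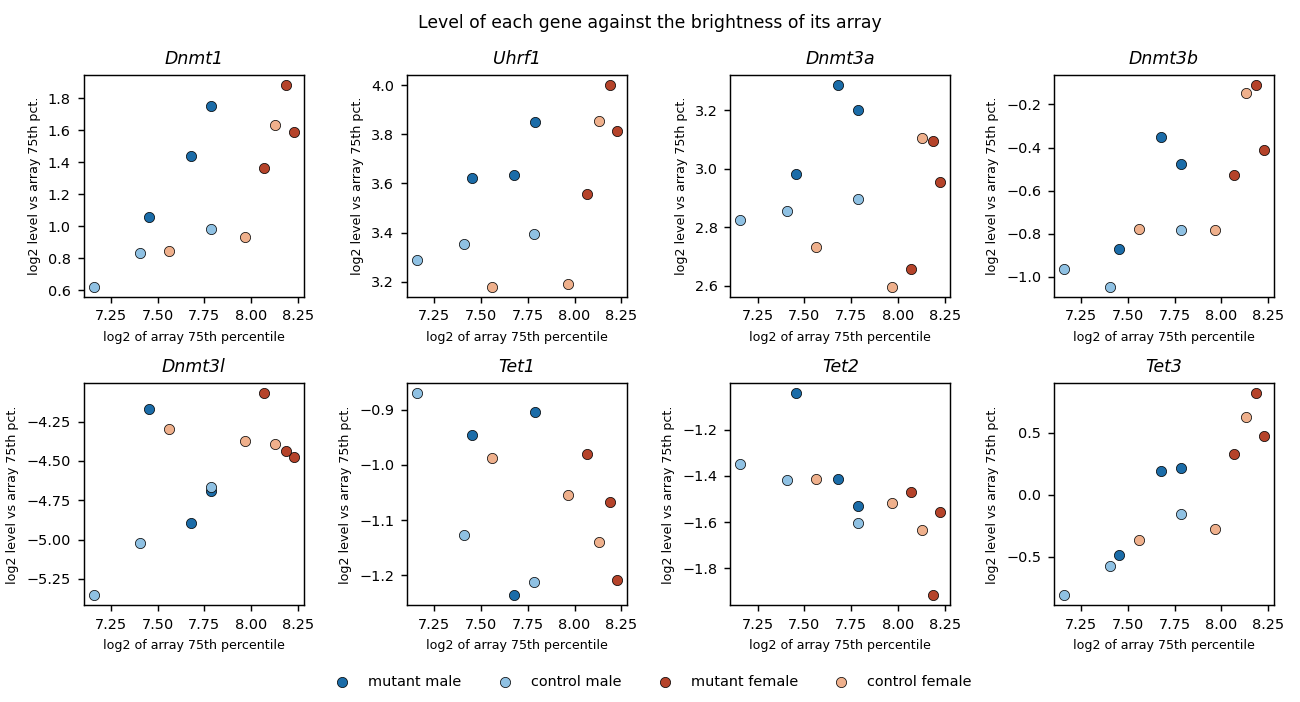
Log2 level of each test probe (vertical) against log2 of the 75th percentile of the same array (horizontal), one point per embryo, coloured by group. Tet3, Dnmt3b and Dnmt1 are higher on brighter arrays (r = 0.895, 0.786 and 0.761), and Tet2 is lower (r = -0.700).

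Among themselves, Dnmt1, Uhrf1, Dnmt3b and Tet3 tracked each other from array to array. The r values hold differences between groups and slides too, and all 4 genes also rose with brightness, as given above. Tet3 is read here by its test probe, which its other probes did not follow. The closest pair was Dnmt3b with Tet3, with a Pearson r of 0.960 over the 12 arrays, followed by Dnmt1 with Tet3 (0.939), Dnmt1 with Uhrf1 (0.933) and Dnmt1 with Dnmt3b (0.920). The share of all features that reached as high an r with the first gene of the pair was 1.47% for Dnmt3b with Tet3, 2.91% for Dnmt1 with Tet3, 3.58% for Dnmt1 with Uhrf1 and 5.08% for Dnmt1 with Dnmt3b. The remaining pairs of these 4 genes were less close, Tet3 with Uhrf1 at 0.827 and Dnmt3b with Uhrf1 at 0.826. As high an r with the first gene was reached there by 14.4% and 13.8% of all features. Dnmt3a with Uhrf1 gave 0.739, which 2.85% of all features reached with Dnmt3a. Tet2 ran against Tet3 (r = -0.718), and Tet1 with Tet2 gave 0.365. The named genes outside the set whose levels were most like each gene, out of 13206, were Ext2 (r = 0.991) and Erbb2 (0.990) for Dnmt1, Galnt2 (0.974) and Tut1 (0.971) for Uhrf1, Vegfb (0.959) and Keap1 (0.958) for Dnmt3a, and Olfm1 (0.989) and Gatad2a (0.989) for Dnmt3b. They were Timp4 (0.940) and Olfr611 (0.875) for Dnmt3l, Naa15 (0.861) and H2bu2 (0.853) for Tet1, AF067063 (0.938) and Kcne3 (0.934) for Tet2, and Zfp46 (0.995) and Sppl3 (0.995) for Tet3.

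The wider methylation pathway was described by the same fit over both sexes. None of 16 cofactors of maintenance and de novo methylation passed the limma test, with 7 higher and 9 lower and a median of -0.03, close to the -0.05 of all features. The 2 with the smallest p were Lig1, the ligase that joins replicated DNA and is bound by Uhrf1, at 0.39 ± 0.111 (limma adjusted p = 0.124), and Trim28, a corepressor that keeps imprinted regions methylated, at 0.51 ± 0.168 (limma adjusted p = 0.164). None of 9 tested readers of methylated DNA passed, with a median of 0.07. Among them Mbd1, which binds methylated CpG, differed by 0.13 (limma adjusted p = 0.251). None of 20 tested TET partners and base excision repair genes, which remove oxidised bases, passed either, with 14 higher, 6 lower and a median of 0.16. The smallest p there belonged to the ligase Lig3, at 0.21 (limma adjusted p = 0.175), and to its scaffold Xrcc1, at 0.30 (limma adjusted p = 0.177).

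Dnmt1 and Uhrf1 are induced in S phase, so S phase genes were set beside them. Of 19 tested, 9 were higher and 10 lower, none passed the limma test, and the median was -0.03 over both sexes. The replication helicase subunits Mcm2 and Mcm5 had the smallest p, at 0.47 ± 0.114 (limma adjusted p = 0.0825) and 0.32 ± 0.0840 (limma adjusted p = 0.106). At an unadjusted p under 0.05 there were 5 of 19, beside 23.6% of all features, and the part of S phase in the Dnmt1 and Uhrf1 values was not tested.

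Of the germline genes whose promoters are methylated in somatic cells, Gpat2, a mitochondrial acyltransferase of the germline, rose by 2.00 in mutant males (limma adjusted p = 0.0211) and by 2.47 in mutant females (limma adjusted p = 0.00496). Slc25a31, a testis form of the ADP/ATP carrier, was well above background on 3 of 3 mutant male, 2 of 3 mutant female and no control array. Its mean level was -4.42 ± 0.164 in mutant males, against -6.59 ± 0.348 in control males, and -5.21 ± 0.550 in mutant females, against -6.30 ± 0.778 in control females (log2, SD). In males that is at least 1.1-fold above the detection limit on control arrays. In females the same bound was 0.818-fold, so no rise above the detection limit is established there. Slc25a31 passed the filter on dim probes only through the mutant males, the group where it was high, so its adjusted p is not used here. Only 7 of the 20 listed genes were tested, with 3 higher and 4 lower over both sexes and a median of -0.02. The list was drawn up with the higher mutant values of both genes known from these arrays, and its calls are no independent evidence beside the 0.13% of all features called higher. The relation of these genes to the levels of the 8 was not tested.

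**Figure D5:**
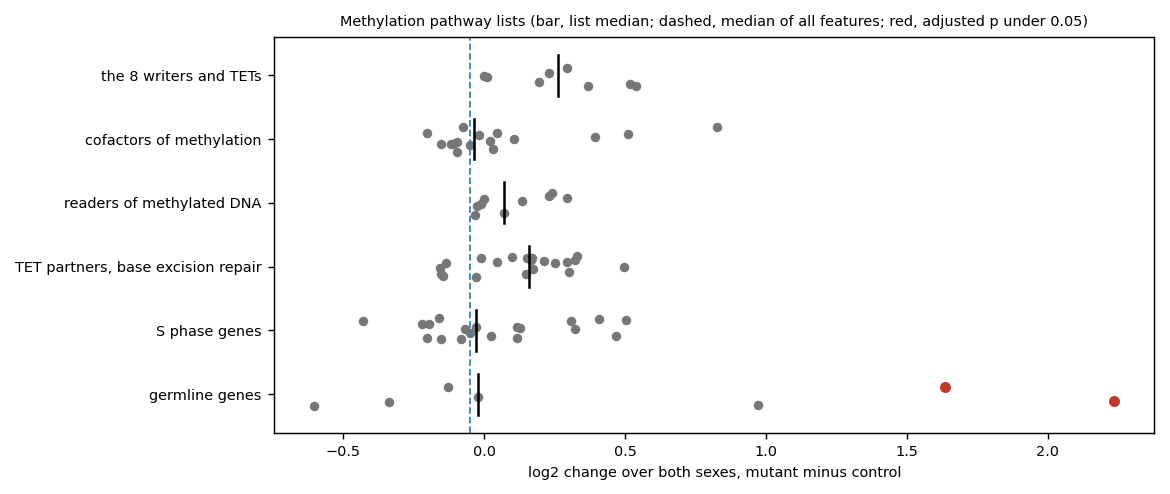
Log2 change over both sexes, mutant minus control, of the 8 genes and of the tested genes of 5 pathway lists; each point is a gene, the bar is the list median and the dashed line the median of all 19180 features (-0.05). The 2 red points, both in the germline list, are Gpat2 and Slc25a31, the second of which passed the filter on dim probes only through mutant males, and no other gene shown had an adjusted p under 0.05.

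Markers of other cell types also varied between the groups. The summed signal of 8 mesonephric epithelium markers, as a multiple of brightness, was 5.09 to 11.2 in mutant males, against 1.82 to 2.96 in control males, and 2.04 to 7.41 in mutant females, against 4.30 to 5.42 in control females. The 9 gonadal somatic markers summed to 40.1 to 54.3 in mutant males, against 36.9 to 43.9 in control males, and to 50.2 to 71.4 in mutant females, against 40.9 to 62.5 in control females. The mesonephric sums of the male groups did not overlap, and neither did the test probes of Dnmt1, Uhrf1 and Dnmt3a. In that comparison 20.3% of all features did not overlap (8.39% higher in mutants). The 7 endothelial markers summed to 4.45 to 8.68 in mutant males, against 4.70 to 8.23 in control males, and to 4.18 to 7.26 in mutant females, against 5.31 to 7.53 in control females. The erythroid sums, of 6 tested markers, were 27.9 to 335.1 in mutant males, against 33.5 to 252.2 in control males, and 23.5 to 499.1 in mutant females, against 57.0 to 866.0 in control females. The macrophage sums, of 4 tested markers, were 1.11 to 2.51 in mutant males, against 0.610 to 2.46 in control males, and 0.407 to 1.89 in mutant females, against 0.831 to 2.29 in control females. The part of these cells in the values of the 8 genes was not tested.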

How the data were processed

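Expression was measured with 12 one-colour Agilent arrays, 1 per embryo, in 4 groups of 3. Per the labels' protocols, a linear amplification kit labelled the RNA with Cy3. Agilent Feature Extraction is named in the submitters' processing notes, and its version was 10.5.1.1 with array design 014868 on mm9, per the file headers. Per the file headers, the authors deposited intensity values on a linear scale, from which the software had subtracted background; nothing records a scaling between arrays.

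Spots marked as outliers were left out, control spots were removed (43379 of 45018 spots remained), and log2 of the processed signal minus that of the 75th percentile of the array was taken. Spots of a probe were averaged. Probe accessions were matched to symbols through RefSeq GRCm38.p6 (27479 of 41174 probes); that assembly was used for names and promoters only. Group means were fitted with limma 3.58.1 (R 4.3.3), p-values were adjusted by Benjamini-Hochberg at 0.05, and the fit was tested on simulated data. The 6 contrasts were the mutant effect in males, in females and over both sexes, the sex difference in mutants and in controls, and the difference of the mutant effects. Figures were drawn with matplotlib 3.10.9.

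The genes named were the 8 with all their probes, Kdm3a, the list genes past the threshold and, in each list, the 2 with the smallest p over both sexes; a gene this rule would name is not reported here. The genes and lists were chosen with earlier results of these data known. A fold given as at least a value sets a group against arrays that did not detect the probe, each taken at its lowest signal well above background or, where higher, at the signal of the probe. Alternatives were quantile normalization, normexp background correction (offset 50, on the median signal, with outlying local backgrounds replaced), no filter or a stricter filter on dim probes, separate tests of each probe, fits of the compared groups alone, array weights, slide or replicate number as a block, brightness as a covariate, and leaving out each array. Where each probe was tested separately, the probe with the smallest p in a comparison stood for its gene there.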

Additional observations from a re-analysis of the deposited data

How the results depend on the processing

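With all arrays, 0 of the 8 genes were called in each of the 6 comparisons, and this count stayed at 0 except under array weights and without control female 3. Array weights called 3 of 8 in males (Dnmt1, Dnmt3b and Tet3), 3 of 8 in females (Dnmt1, Uhrf1 and Tet3) and 5 of 8 over both sexes. The same fits called 13.7% of all features in males, 29.3% in females and 52.2% over both sexes. Leaving out each array in turn gave 0 to 4 over both sexes and 0 in each of the other comparisons. The 4 came without control female 3, beside 24.8% of all features. Of 1033 values of single genes under alternatives, 15 were called and 92 had the opposite sign to the value reported, all of them uncalled. The number of all features called ranged from 25 (without control male 1) to 2622 (array weights) in males, beside 90; from 13 (slide as a block) to 5616 (array weights) in females, beside 68; and from 58 (slide as a block) to 10009 (array weights) over both sexes, beside 214. For sex it ranged from 7 to 90 in mutants, beside 25, and from 13 to 246 in controls, beside 34, each from the slide block to array weights. For the difference of the mutant effects it ranged from 0 to 8 (slide as a block). The cause was not tested. With the replicate block, 0 of 8 genes were called in each comparison, and 62 features in males, 48 in females and 175 over both sexes. Replicate numbers did not pair the arrays: the 18 same-numbered pairs correlated between -0.53 and 0.43 in their deviations from group means, and 6 of them exceeded 0.1. Only the groups compared was not run over both sexes or for the difference of effects, where all groups enter. Dnmt3l has no value where probes had to be well above background on all 12 arrays.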
